A study of Rattus norvegicus with 16 samples.

Results

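The synaptic vesicle release machinery was followed through 38 genes, listed by name as parts of the pathway, with earlier results of these data known. They encode proteins of the vesicle membrane, the calcium sensors, the fusion complex with its helpers, the scaffold of the release site, the fission enzyme that retrieves vesicle membrane, and the transporters that load vesicles with glutamate. Of the 38, 35 had a matched probe on the array and 34 were tested, out of 11344 genes tested in all. No probe was matched to Snap25 (a plasma membrane SNARE), Snap91 (a clathrin assembly protein) or Napb (a cofactor of NSF). Syt2, a calcium sensor, was well above background on 3 arrays, all depression-susceptible, and was not tested.

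At a nerve terminal, vesicles filled with transmitter are held near the release site by active zone scaffolds and made ready for fusion by priming proteins. Fusion is driven by SNARE proteins on vesicle and plasma membrane, clamped by complexins and triggered when calcium binds synaptotagmin. NSF and its SNAP cofactors then take the SNARE complexes apart, and dynamin pinches off membrane for new vesicles. In the hippocampus, most of this release is of glutamate from principal cells, beside GABA from interneurons.

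RNA came from the hippocampus of male Sprague-Dawley rats of 250 g; the labels name no age. A control group went without chronic mild stress, a regime of varied small stressors, and 3 groups went through 8 weeks of it and were labelled depression-susceptible, anxiety-susceptible or insusceptible. Assignment to stress or control took the baseline sucrose intake into account, per the labels. Each group had 4 single-colour Agilent arrays, and the labels do not say whether these come from 4 different rats.

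Control and depression-susceptible arrays shared slides 1 and 2, with 2 of each group per slide. All anxiety-susceptible arrays lay on slide 3 and all insusceptible arrays on slide 4, and these slides were scanned on a later day (day 2). Within a slide, the arrays of a group differed by less than repeated spots of 1 array, so they were averaged, which left 6 samples: control and depression-susceptible on each of slides 1 and 2, and 1 sample each of the other groups. Standard errors (SE) and p-values therefore measure the spread between slides, which may be technical, and not the spread between rats. For the anxiety-susceptible and insusceptible groups, the group, the slide and the scan day cannot be told apart.

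A level is the log2 processed signal minus the 75th percentile of its array, so 0 is the signal of that percentile, and it is compared between samples but not between genes. A gene was called when its Benjamini-Hochberg adjusted p from limma, taken over all 17883 probes tested, was under 0.05. Calls were set beside those after quantile normalization, which forces 1 signal distribution on all arrays, since the 75th percentile signal was 2997 to 3382 units on day 1 and 1077 to 1248 units on day 2.

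Syt1, Pclo and Syp were the members with the largest falls that recurred. All 3 were called lower in the anxiety-susceptible and in the insusceptible group under both scalings, and Syt1 was called lower in the depression-susceptible group as well. Rab3c, with a smaller difference, was also called lower in both day 2 groups under both scalings. Sv2c and Cplx2 were the members called higher. In bulk tissue, fewer cells of a type and less RNA per cell cannot be told apart.

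In the depression-susceptible group, 0 of 34 members were called higher and 2 lower, Syn3 and Syt1, against 4.79% of all genes higher and 3.9% lower (limma). At an unadjusted p under 0.05, 0 members were higher and 11 lower, against 12.5% and 18.2% of all genes. After quantile normalization 0 were called higher and 1 lower, against 4.65% and 4.25% of all genes, and Syn3 was the member called lower under both scalings, a rule that took 3.9% of all genes higher and 2.88% lower. With the slide as a block, 1 member, Unc13b, was called higher and 16 lower, against 14.5% and 22.9% of all genes. The 16 were Syn2, Syn3, Syp, Synpr, Sv2b, Syt1, Syt4, Vamp1, Vamp2, Cplx1, Rab3a, Bsn, Pclo, Napa, Nsf and Dnm1. Of these, Unc13b, and Syn3, Syt1 and Pclo on the lower side, were also called with the slide as a block after quantile normalization, a rule that took 10.5% of all genes higher and 10.7% lower. The members' median difference was -0.27 (-0.21 on slide 1 and -0.30 on slide 2), against -0.062 for all genes, and it was -0.0080 after quantile normalization.

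In the anxiety-susceptible group, 2 of 34 members were called higher (Sv2c and Cplx2) and 14 lower, against 9.9% of all genes higher and 18.9% lower. Called lower were Syn1, Syn2, Syn3, Syp, Synpr, Sv2a, Sv2b, Syt1, Rab3c, Rims1, Rims2, Bsn, Pclo and Napa. Under both scalings 1 was called higher, Cplx2, and 10 lower: Syn2, Syn3, Syp, Synpr, Syt1, Rab3c, Rims1, Rims2, Pclo and Napa. That rule took 6.9% of all genes higher and 13.2% lower. The share of members called lower under both scalings was 29.4%. The members' median difference was -0.37, against -0.12 for all genes, and after quantile normalization it was -0.12 against -0.082.

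In the insusceptible group, 1 of 34 members was called higher (Sv2c) and 10 lower, against 12.2% of all genes higher and 16.5% lower. Called lower were Syn1, Syn2, Syp, Sv2a, Syt1, Stx1a, Rab3c, Bsn, Pclo and Napa. Under both scalings Sv2c was called higher and Syp, Syt1, Rab3c and Pclo lower, which is 11.8% of the members on the lower side, and that rule took 7.01% of all genes higher and 10.8% lower. After quantile normalization alone 2 were called higher and 4 lower, against 10.9% and 17.4% of all genes. The members' median difference was -0.35, against -0.061 for all genes, and after quantile normalization it was -0.16 against -0.048.

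The 3 comparisons share the control samples. The mean of the stressed groups differed from control with 2 members called higher and 13 lower, against 13.5% and 22.5% of all genes. Under both scalings 0 were called higher and 7 lower (Syn2, Syn3, Syp, Syt1, Rab3c, Rims2 and Pclo), against 8.57% and 14.3% of all genes. At an unadjusted p under 0.05, 2 members were higher and 18 lower in that mean, against 18.8% and 31.2% of all genes. Leaving out the control sample of slide 1 or of slide 2 brought the calls in the depression-susceptible, anxiety-susceptible and insusceptible comparisons to 0 each, with 1 residual degree of freedom left. In the stressed mean, Syt1 and Pclo were called without either control sample. Leaving out either depression-susceptible sample, which adds to the estimate of spread, also lowered the number of calls in the anxiety-susceptible and insusceptible comparisons. The share of all genes called by these reduced fits was not counted. Calls kept or lost in them are therefore not results about the members.

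**Figure D1:**
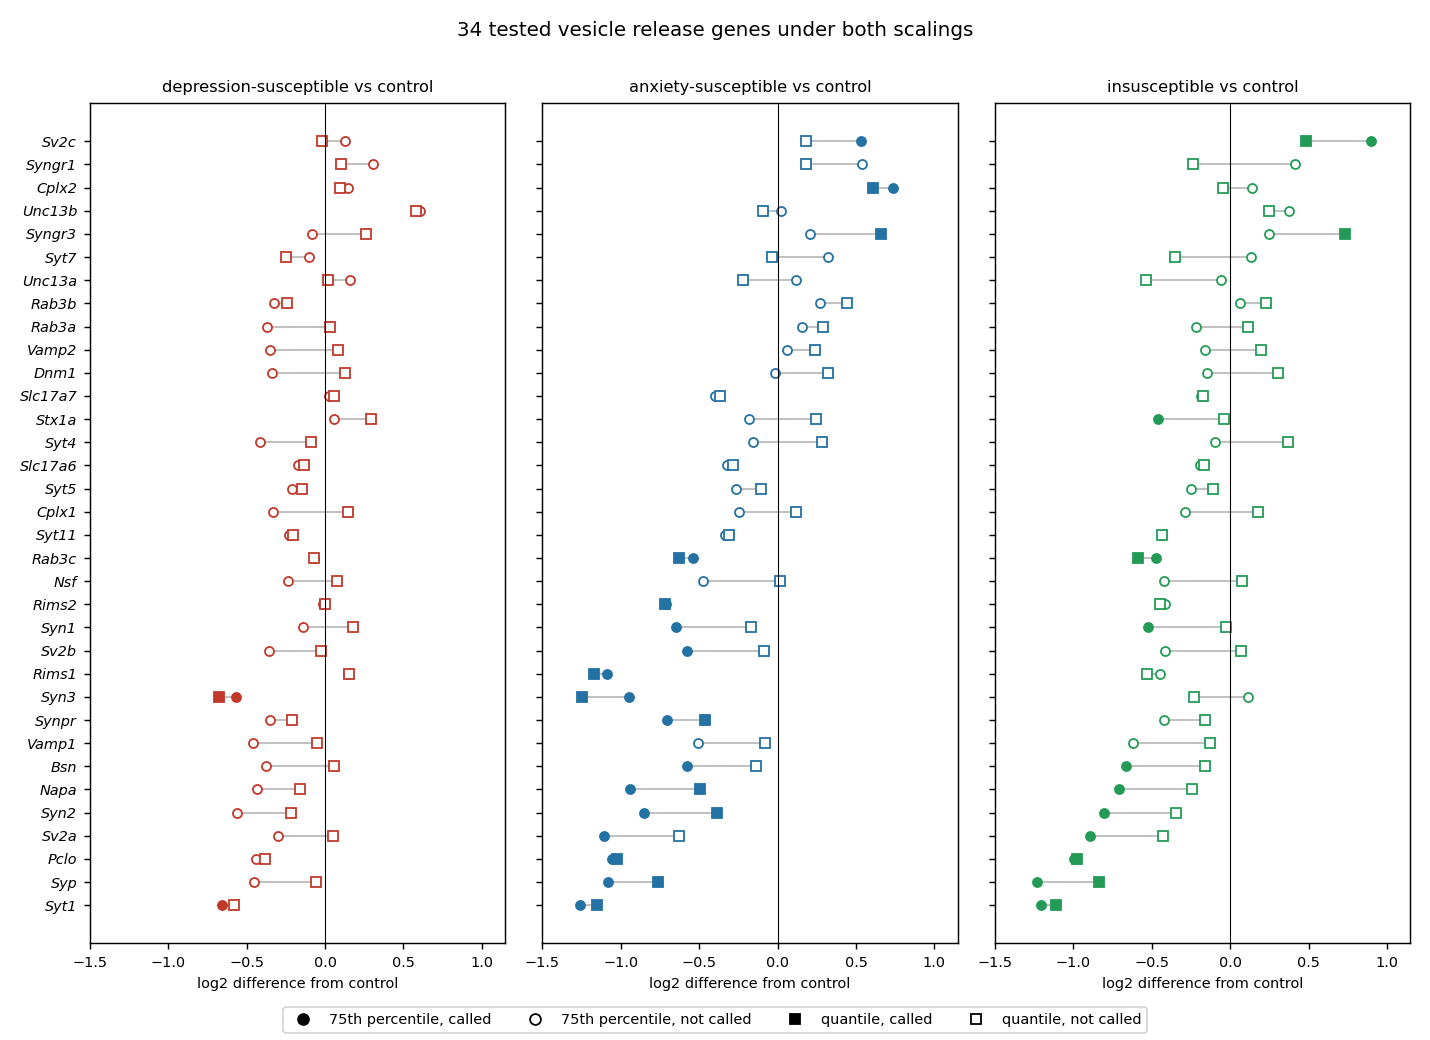
Log2 difference from control (x axis) for the 34 tested members (y axis, ordered by the stressed mean) in each stressed group; circles use 75th percentile scaling, squares quantile normalization, and filled symbols are past an adjusted p of 0.05. Syt1, Pclo and Syp sit at the bottom with both symbols far to the left in the day 2 groups, while for members such as Cplx1, Dnm1 and Syt4 the symbols lie on opposite sides of 0.

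Syt1 encodes synaptotagmin 1, the calcium sensor for fast release. Its level was 1.79 and 1.68 in the control samples of slides 1 and 2, 1.16 and 0.99 in the depression-susceptible samples of the same slides, 0.47 in the anxiety-susceptible and 0.53 in the insusceptible sample. No stressed sample reached a control sample. For this and later members, the share of all genes with every stressed sample on the same side of both controls was not counted. Uncalled members such as Syt11 and Slc17a6 had that order too. It fell by 0.66 (SE 0.10, adjusted p = 0.039) in the depression-susceptible group, by 1.26 (SE 0.12, adjusted p = 0.012) in the anxiety-susceptible group and by 1.21 (SE 0.12, adjusted p = 0.014) in the insusceptible group. The last 2 are 2.4-fold and 2.31-fold lower signals. Within slide 1 the depression-susceptible difference was -0.63, and within slide 2 it was -0.69; it fell with the slide as a block (adjusted p = 0.010). After quantile normalization the 3 differences were -0.58, -1.15 and -1.11, the first with an adjusted p of 0.055.

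Among the other synaptotagmins, no member was called against control in the fit without a slide block. Syt4, a family member that does not bind calcium in the usual way, had differences of -0.41, -0.16 and -0.095 in the depression-susceptible, anxiety-susceptible and insusceptible groups. With the slide as a block Syt4 was called lower in the depression-susceptible group (adjusted p = 0.017), but not after quantile normalization (0.22). Syt11 had -0.23, -0.34 and -0.44, and Syt5 had -0.21, -0.26 and -0.25. Syt7, a high-affinity sensor linked to asynchronous release, was dim, with differences of -0.10, 0.32 and 0.13. The paralogues thus lay within 0.45 of control where Syt1 moved by more than 1 in the day 2 groups, and the difference between paralogues was not tested.

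Piccolo (Pclo) and bassoon (Bsn) are giant scaffold proteins of the active zone. Pclo had a level of 0.87 and 0.89 in the control samples, 0.49 and 0.39 in the depression-susceptible samples of slides 1 and 2, -0.17 in the anxiety-susceptible and -0.12 in the insusceptible sample. The groups did not overlap, with the depression-susceptible samples between control and the rest. Its difference was -0.44 (SE 0.079, adjusted p = 0.051) in the depression-susceptible group, with -0.38 and -0.50 within slides 1 and 2, and it fell there with the slide as a block (adjusted p = 0.020). It fell by 1.05 (SE 0.096, adjusted p = 0.011) in the anxiety-susceptible group and by 0.997 (SE 0.096, adjusted p = 0.012) in the insusceptible group, and quantile normalization gave -1.03 and -0.98. A second probe, for another RefSeq transcript of Pclo, was dimmer and was not called: its differences were -0.0032, -0.26 and -0.11, so the probes disagree.

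Bsn had levels of 5.61 and 5.44 in the control samples, 5.19 and 5.11 in the depression-susceptible samples of slides 1 and 2, 4.94 in the anxiety-susceptible and 4.86 in the insusceptible sample. Every stressed sample was below both controls under 75th percentile scaling. It fell by 0.58 (SE 0.12, adjusted p = 0.036) and by 0.66 (SE 0.12, adjusted p = 0.029) in the anxiety-susceptible and insusceptible groups. After quantile normalization the same differences were -0.14 and -0.16 (adjusted p = 0.40 and 0.36), and the depression-susceptible difference went from -0.37 to 0.055.

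Rims1 and Rims2 encode scaffold proteins that tie Rab3 on the vesicle to calcium channels and priming factors. Rims1 had levels of -0.62 and -0.46 in the control samples, -0.58 and -0.21 in the depression-susceptible samples of slides 1 and 2, -1.63 in the anxiety-susceptible and -0.99 in the insusceptible sample. The depression-susceptible samples overlapped control, and the anxiety-susceptible sample was the lowest. Rims1 fell by 1.09 (SE 0.20, adjusted p = 0.029) in the anxiety-susceptible group, and its insusceptible difference was -0.45 (adjusted p = 0.16). Rims2 had levels of 0.13 and 0.029 in control, 0.095 and 0.028 in the depression-susceptible samples, -0.63 in the anxiety-susceptible and -0.34 in the insusceptible sample. It fell by 0.71 (SE 0.10, adjusted p = 0.020) in the anxiety-susceptible group, beside -0.015 in the depression-susceptible and -0.41 (adjusted p = 0.05004) in the insusceptible group. Both anxiety-susceptible falls were called after quantile normalization, at -1.17 and -0.72, and a second Rims2 probe fell there by 0.82. That probe also fell in the insusceptible group, with a difference of -0.51 (adjusted p = 0.035).

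Unc13a and Unc13b encode Munc13 proteins, which prime docked vesicles for fusion. Unc13b had levels of -1.63 and -1.26 in the control samples of slides 1 and 2, -1.11 and -0.57 in the depression-susceptible samples, -1.42 in the anxiety-susceptible and -1.07 in the insusceptible sample. On each slide the depression-susceptible sample was above its control, by 0.52 and by 0.69, while the depression-susceptible sample of slide 1 lay only 0.16 above the control sample of slide 2. Its depression-susceptible difference of 0.61 had an adjusted p of 0.19 without and 0.016 with the slide as a block, where it rose under both scalings. A dimmer Unc13b probe for another transcript rose by 0.47, 0.48 and 0.68 in the 3 groups (adjusted p = 0.045, 0.035 and 0.020), whereas the brighter probe's anxiety-susceptible difference was 0.022. Unc13a was well above background on 4 control, 4 depression-susceptible, 2 anxiety-susceptible and 0 insusceptible arrays, and no fold is given for it.

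**Figure D2:**
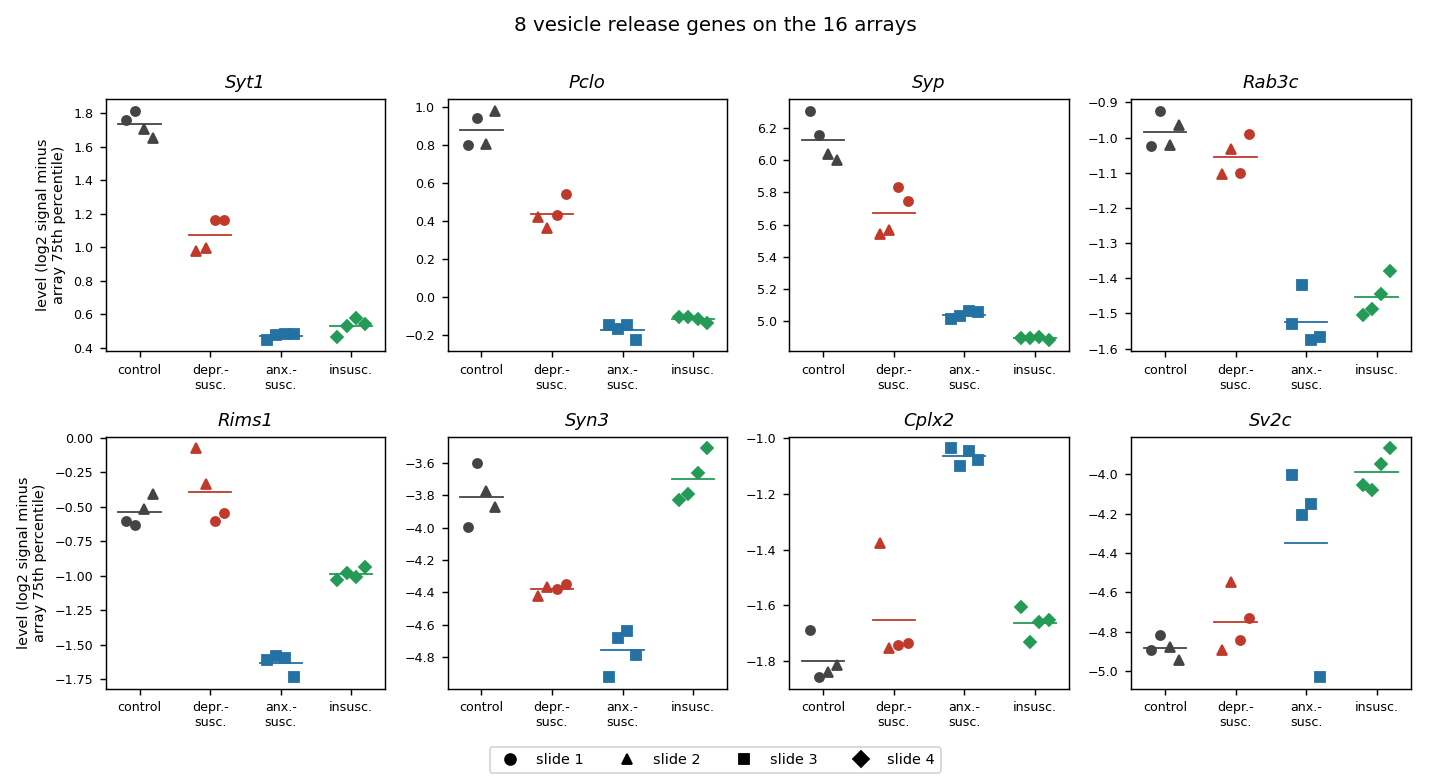
Level (y axis, log2 signal minus the array's 75th percentile) of 8 members on each of the 16 arrays; symbols mark the slide, colours the group and lines the group mean. Arrays of 1 slide cluster, Syt1, Pclo and Syp step down from control through depression-susceptible to the day 2 groups, and 1 anxiety-susceptible array of Sv2c stands at -5.03, apart from the others of its slide.

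Synaptophysin (Syp) and synaptoporin (Synpr) are related membrane proteins of the vesicle. Syp had levels of 6.23 and 6.02 in the control samples, 5.79 and 5.55 in the depression-susceptible samples of slides 1 and 2, 5.04 in the anxiety-susceptible and 4.89 in the insusceptible sample. No stressed sample reached a control sample under 75th percentile scaling. After quantile normalization the depression-susceptible sample of slide 2 (5.88) lay above the control sample of slide 1 (5.86). It fell by 1.08 (SE 0.16, adjusted p = 0.023) in the anxiety-susceptible and by 1.23 (SE 0.16, adjusted p = 0.018) in the insusceptible group, 2.12-fold and 2.35-fold lower signals. After quantile normalization both remained called, at -0.76 and -0.83, but the depression-susceptible difference went from -0.45 to -0.055.

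Synpr had levels of 2.68 and 2.46 in control, 2.25 and 2.18 in the depression-susceptible samples of slides 1 and 2, 1.86 in the anxiety-susceptible and 2.15 in the insusceptible sample. It fell by 0.71 (SE 0.13, adjusted p = 0.032) in the anxiety-susceptible group, where quantile normalization gave -0.46 (adjusted p = 0.048). Its difference was -0.43 (adjusted p = 0.082) in the insusceptible group. Syngr3, a synaptogyrin of the vesicle membrane, was not called under 75th percentile scaling, with differences of -0.082, 0.21 and 0.25. After quantile normalization it rose by 0.66 and 0.73 in the anxiety-susceptible and insusceptible groups (adjusted p = 0.019 and 0.018). Syngr1 was well above background on 1 control, 3 depression-susceptible, 0 anxiety-susceptible and 0 insusceptible arrays, so no fold is given.

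The SV2 proteins are vesicle glycoproteins that act on calcium-triggered release, and the 3 genes did not share a direction in the day 2 groups. Sv2a had levels of 4.97 and 4.72 in control, 4.47 and 4.62 in the depression-susceptible samples of slides 1 and 2, 3.74 in the anxiety-susceptible and 3.96 in the insusceptible sample. It fell by 1.11 (SE 0.15, adjusted p = 0.020) and by 0.89 (SE 0.15, adjusted p = 0.027) in the last 2 groups, and quantile normalization gave -0.63 and -0.43 (adjusted p = 0.066 and 0.14). Sv2b had levels of 4.55 and 4.43 in control, 4.17 and 4.10 in the depression-susceptible samples, 3.92 in the anxiety-susceptible and 4.08 in the insusceptible sample. Its anxiety-susceptible fall of 0.58 (SE 0.11, adjusted p = 0.031) was -0.086 after quantile normalization.

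Sv2c was dimmer on the array, at -4.86 and -4.91 in the control samples, -4.79 and -4.72 in the depression-susceptible samples of slides 1 and 2, -4.35 in the anxiety-susceptible and -3.99 in the insusceptible sample. All stressed samples were above both controls under 75th percentile scaling. After quantile normalization the depression-susceptible samples lay between the controls, with a difference of -0.019. It rose by 0.53 (SE 0.094, adjusted p = 0.028) in the anxiety-susceptible and by 0.90 (SE 0.094, adjusted p = 0.014) in the insusceptible group, with quantile values of 0.18 (adjusted p = 0.18) and 0.48 (adjusted p = 0.029). The anxiety-susceptible array at -5.03 lay below its control samples, and without it that rise was 0.76. Without depression-susceptible array 1 the anxiety-susceptible rise had an adjusted p of 0.061.

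Synapsins tether vesicles to each other and to the cytoskeleton in the reserve pool. Syn1 had levels of 4.23 and 4.30 in control, 4.23 and 4.03 in the depression-susceptible samples of slides 1 and 2, 3.62 in the anxiety-susceptible and 3.74 in the insusceptible sample. Its falls of 0.65 (SE 0.13, adjusted p = 0.034) and 0.53 (SE 0.13, adjusted p = 0.049) in the day 2 groups became -0.17 and -0.028 after quantile normalization. The insusceptible call was lost, at adjusted p up to 0.065, without any 1 of control arrays 1, 3 and 4, depression-susceptible arrays 1, 2 and 3 or insusceptible array 1. A second Syn1 probe, about as bright, fell by 0.70 (adjusted p = 0.025) and 0.57 (adjusted p = 0.036) in the day 2 groups. After quantile normalization its differences were -0.23 and -0.078. Syn2 had levels of 5.16 and 4.97 in control, 4.62 and 4.38 in the depression-susceptible samples, 4.21 in the anxiety-susceptible and 4.25 in the insusceptible sample, with no overlap with control. It fell by 0.85 (SE 0.16, adjusted p = 0.031) and by 0.81 (SE 0.16, adjusted p = 0.034) in the day 2 groups. A second Syn2 probe, for another RefSeq transcript, fell by 1.42 and 1.35 there, and by 1.20 and 1.14 after quantile normalization, where the brighter probe gave -0.39 and -0.34.

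The level of Syn3 was -3.80 and -3.82 in control, -4.37 and -4.40 in the depression-susceptible samples of slides 1 and 2, -4.76 in the anxiety-susceptible and -3.70 -3.70 in the insusceptible sample, whose difference from control was 0.11 (adjusted p = 0.37). It fell by 0.57 (SE 0.072, adjusted p = 0.025) in the depression-susceptible group, with -0.57 and -0.57 within the slides, and by 0.95 (SE 0.088, adjusted p = 0.012) in the anxiety-susceptible group; both were called after quantile normalization. The probe was well above background on all 16 arrays but dim, and with normexp background correction the anxiety-susceptible difference was -0.10 (adjusted p = 0.42). The insusceptible difference moved with the processing, to -0.23 (adjusted p = 0.17) after quantile normalization, below both controls, and to 0.36 (adjusted p = 0.033) with normexp. Without control array 2, the depression-susceptible fall had an adjusted p of 0.071. The anxiety-susceptible minus insusceptible difference was -1.06 (SE 0.10), with an adjusted p of 0.11.

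Rab3 proteins are small GTPases that link vesicles to the RIM scaffold. Rab3c had levels of -0.97 and -0.99 in control, -1.05 and -1.07 in the depression-susceptible samples of slides 1 and 2, -1.52 in the anxiety-susceptible and -1.45 in the insusceptible sample. Control and depression-susceptible samples lay close together and the day 2 samples lower. It fell by 0.54 (SE 0.087, adjusted p = 0.025) and by 0.47 (SE 0.087, adjusted p = 0.031) in the day 2 groups, and by 0.63 and 0.59 after quantile normalization. Its paralogues were not called without a slide block: Rab3a had differences of -0.37, 0.16 and -0.22 and Rab3b of -0.32, 0.27 and 0.062 in the depression-susceptible, anxiety-susceptible and insusceptible groups. With the block Rab3a was called lower in the depression-susceptible group (adjusted p = 0.019), where its difference was 0.033 after quantile normalization.

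The fusion complex itself showed few calls without a slide block. Stx1a, a plasma membrane SNARE, had levels of 3.42 and 3.52 in control, 3.48 and 3.56 in the depression-susceptible samples of slides 1 and 2, 3.28 in the anxiety-susceptible and 3.01 in the insusceptible sample. It fell by 0.46 (SE 0.10, adjusted p = 0.043) in the insusceptible group, where quantile normalization gave -0.040; the call was lost without control array 1 or depression-susceptible arrays 1 or 4 (adjusted p = 0.055, 0.054 and 0.053). Without the block the vesicle SNAREs were not called: Vamp2 had differences of -0.35, 0.062 and -0.16, and Vamp1 of -0.46, -0.51 and -0.62, with an SE of 0.26 to 0.32 for Vamp1. With the slide as a block both were called lower in the depression-susceptible group (adjusted p = 0.015 for Vamp1 and 0.024 for Vamp2), and neither was called there after quantile normalization (0.50 and 0.31).

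Complexins clamp and then promote fusion. Cplx2 had levels of -1.77 and -1.83 in control, -1.74 and -1.57 in the depression-susceptible samples of slides 1 and 2, -1.06 in the anxiety-susceptible and -1.66 in the insusceptible sample. The anxiety-susceptible sample stood above all others. It rose by 0.74 (SE 0.12, adjusted p = 0.024), and by 0.61 after quantile normalization, against 0.15 and 0.14 in the other stressed groups; without depression-susceptible array 2 the adjusted p was 0.056. Cplx1 was not called without the block, with differences of -0.33, -0.25 and -0.29 that were 0.14, 0.12 and 0.18 after quantile normalization; with the block its depression-susceptible difference had an adjusted p of 0.024. The difference between the complexins was not tested.

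Napa encodes alpha-SNAP, the cofactor through which NSF takes SNARE complexes apart. Its levels were 3.89 and 3.91 in control, 3.58 and 3.35 in the depression-susceptible samples of slides 1 and 2, 2.96 in the anxiety-susceptible and 3.19 in the insusceptible sample. No stressed sample reached a control sample. It fell by 0.94 (SE 0.13, adjusted p = 0.020) and by 0.71 (SE 0.13, adjusted p = 0.031) in the day 2 groups, and after quantile normalization the first was -0.49 (adjusted p = 0.043) and the second -0.24 (adjusted p = 0.18). Nsf was not called without the block, with differences of -0.23, -0.48 and -0.42. Dnm1, the dynamin of synaptic vesicle retrieval, was not called either, with -0.34, -0.016 and -0.15. With the block both were called lower in the depression-susceptible group (adjusted p = 0.043 for Nsf and 0.027 for Dnm1), where quantile normalization gave 0.079 and 0.12.

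The vesicular glutamate transporters Slc17a7 (VGLUT1) and Slc17a6 (VGLUT2) were not called in any comparison with control. Slc17a7 had differences of 0.025, -0.40 and -0.19, and Slc17a6 of -0.17, -0.32 and -0.20. These differences hardly moved with the scaling: the anxiety-susceptible values were -0.37 and -0.28 after quantile normalization. They do not show that the transporters were at the control level, since the SE was 0.18 for Slc17a7 and 0.088 for Slc17a6. The level of Slc17a6 was 0.75 and 0.72 in control and 0.55 and 0.57 in the depression-susceptible samples of slides 1 and 2. It was 0.42 in the anxiety-susceptible and 0.54 in the insusceptible sample, so every stressed sample was below both controls.

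**Figure D3:**
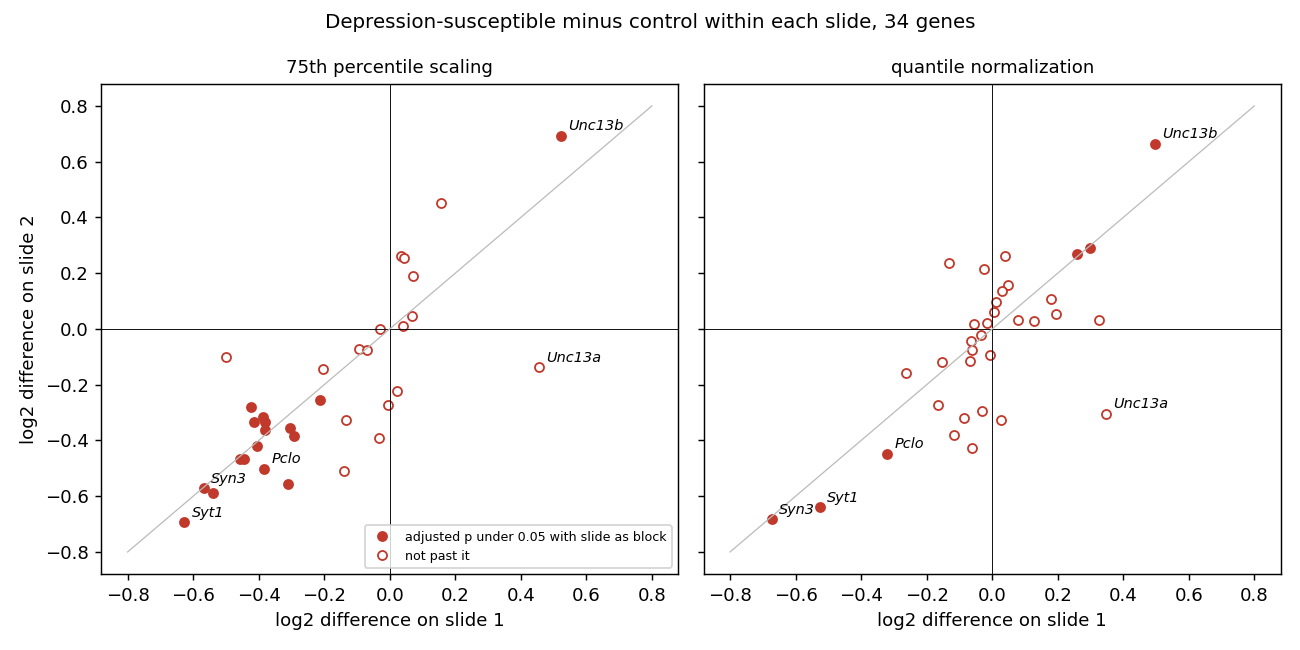
Depression-susceptible minus control log2 difference on slide 1 (x axis) and slide 2 (y axis) for the 34 members, with 75th percentile scaling on the left and quantile normalization on the right; filled points have an adjusted p under 0.05 with the slide as a block, and the grey line marks equal differences. Syt1, Syn3 and Pclo stay at the lower left and Unc13b at the upper right in both panels, while the cluster of members near -0.4 on the left lies near 0 on the right.

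Members with bright probes carried most of the gap between the scalings. Of the 34, 17 had a mean level above 2, and their median difference was -0.35, -0.51 and -0.43 in the depression-susceptible, anxiety-susceptible and insusceptible groups. For the 2615 genes tested with a mean level above 2 it was -0.24, -0.35 and -0.34. After quantile normalization the bright members' medians were 0.053, -0.078 and -0.028. The sign of a member's difference turned with the scaling for 11, 8 and 11 of the 34 members. The other 17 members, at a mean level of 2 or below, had medians of -0.32 and -0.19 in the day 2 groups, and of -0.29 and -0.24 after quantile normalization, where the 8729 genes of that range had -0.12 and -0.079.

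**Figure D4:**
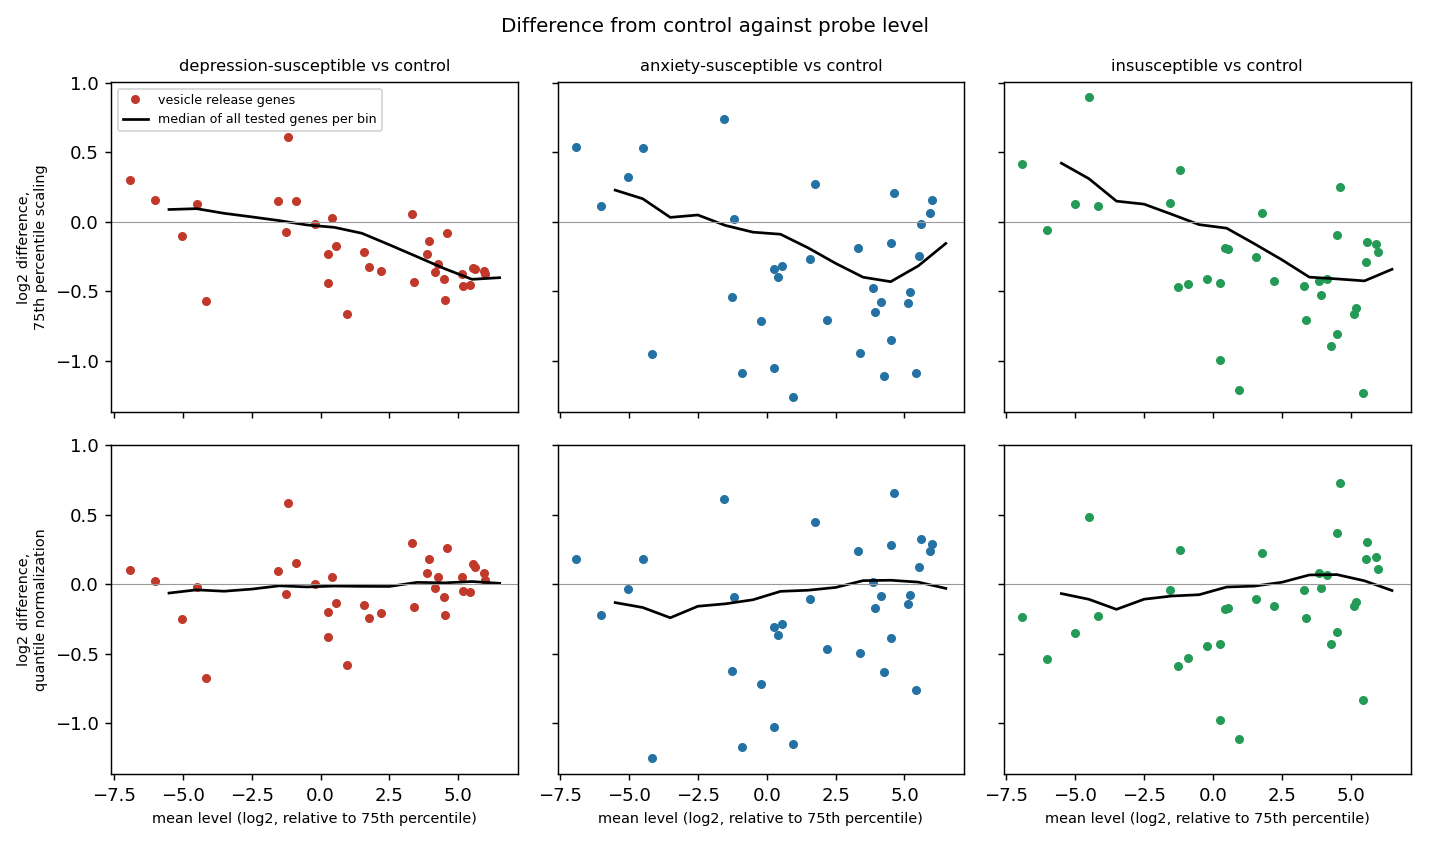
Log2 difference from control (y axis) against mean level (x axis) for the 34 members (points) and the median of all tested genes in bins of 1 log2 unit (line), with 75th percentile scaling above and quantile normalization below. The line bends down at high levels above and runs near 0 below; the members at middle levels that lie about 1 under it in the day 2 groups are there in both rows.

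Between the stressed groups, 0 members were called in any of the 3 comparisons (limma, 6 samples). The same test called 0.0882% of all genes higher and 0.0176% lower in depression-susceptible against insusceptible and in anxiety-susceptible against insusceptible, and 0.167% higher and 0.176% lower in depression-susceptible against anxiety-susceptible. At an unadjusted p under 0.05, 9 members were higher and 4 lower in the first of these, 1 and 3 in the second, and 10 and 4 in the third. All genes had 16% higher and 13.4% lower, 4.0% and 6.65%, and 18.9% and 11.5% in the same order. A fit to the 16 unaveraged arrays called 14, 4 and 19 members higher (41.2%, 11.8% and 55.9%), against 32.2%, 12.9% and 36.9% of all genes. It called 8, 8 and 9 members lower (23.5%, 23.5% and 26.5%), against 28.6%, 22.1% and 24.2% of all genes. Rims1 had the largest member difference, 1.24 (SE 0.20, adjusted p = 0.063) higher in depression-susceptible than in anxiety-susceptible. After quantile normalization 5 members were called higher in that comparison and 0 lower, against 7.4% and 2.92% of all genes: Rims1, Rims2, Syp, Pclo and Rab3c. Rims1 and Cplx2, which stood apart in the anxiety-susceptible sample, did not pass the test against the insusceptible sample, with an adjusted p of 0.45 and 0.28.

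The promoters of 6 members are shown because 4 (Syt1, Pclo, Syp and Rab3c) were called lower in both day 2 groups under both scalings, and 2 (Cplx2 and Sv2c) were the members called higher under both scalings in 1 of them. RefSeq promoter sequences on GRCr8, 250 bases before to 50 after the start, matched 30 of the 38 members. Capitals mark the GC box GGGCGG, the core of SP1 sites, and GCGGGGGCG, a sequence bound by EGR1, on either strand; where they overlap the capitals run together. They lie on the minus strand at chr7:46244164-46244463 (Syt1), chr4:21005062-21005361 (Pclo), chrX:17536400-17536699 (Syp), chr2:43575894-43576193 (Rab3c), chr17:10236704-10237003 (Cplx2) and chr2:29163119-29163418 (Sv2c).
Syt1: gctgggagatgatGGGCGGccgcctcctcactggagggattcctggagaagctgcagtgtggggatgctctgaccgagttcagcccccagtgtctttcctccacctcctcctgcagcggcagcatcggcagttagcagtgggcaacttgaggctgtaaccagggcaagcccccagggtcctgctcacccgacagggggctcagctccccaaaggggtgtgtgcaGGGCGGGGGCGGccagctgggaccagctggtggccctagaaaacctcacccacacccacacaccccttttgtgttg
Pclo: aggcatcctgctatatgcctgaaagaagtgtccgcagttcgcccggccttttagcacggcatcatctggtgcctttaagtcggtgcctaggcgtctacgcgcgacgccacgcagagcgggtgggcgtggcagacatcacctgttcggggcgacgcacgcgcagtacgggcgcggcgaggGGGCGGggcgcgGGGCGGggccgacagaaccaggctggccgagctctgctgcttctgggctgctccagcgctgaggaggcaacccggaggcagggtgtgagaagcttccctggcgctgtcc
Syp: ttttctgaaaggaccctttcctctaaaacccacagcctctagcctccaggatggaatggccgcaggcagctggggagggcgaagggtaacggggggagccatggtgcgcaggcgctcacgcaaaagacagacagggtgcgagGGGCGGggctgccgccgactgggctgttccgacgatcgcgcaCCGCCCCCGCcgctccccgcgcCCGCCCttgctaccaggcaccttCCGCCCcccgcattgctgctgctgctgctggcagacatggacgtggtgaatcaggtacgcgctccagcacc
Rab3c: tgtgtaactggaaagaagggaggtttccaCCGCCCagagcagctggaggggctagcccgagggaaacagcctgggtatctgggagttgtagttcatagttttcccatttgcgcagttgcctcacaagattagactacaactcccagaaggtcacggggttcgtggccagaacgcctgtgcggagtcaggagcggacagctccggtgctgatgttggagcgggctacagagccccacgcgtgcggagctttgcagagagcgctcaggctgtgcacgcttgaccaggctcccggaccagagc
Cplx2: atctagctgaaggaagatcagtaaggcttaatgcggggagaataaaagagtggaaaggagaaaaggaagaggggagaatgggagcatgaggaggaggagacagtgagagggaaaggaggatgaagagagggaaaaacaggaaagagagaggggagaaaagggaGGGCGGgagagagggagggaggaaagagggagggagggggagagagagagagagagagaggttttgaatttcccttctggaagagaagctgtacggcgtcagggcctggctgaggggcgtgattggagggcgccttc
Sv2c: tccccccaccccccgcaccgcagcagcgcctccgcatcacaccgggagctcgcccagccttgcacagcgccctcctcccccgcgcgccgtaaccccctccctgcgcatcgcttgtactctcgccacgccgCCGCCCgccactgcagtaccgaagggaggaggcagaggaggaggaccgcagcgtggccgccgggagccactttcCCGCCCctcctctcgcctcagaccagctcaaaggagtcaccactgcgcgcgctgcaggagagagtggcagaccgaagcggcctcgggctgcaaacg

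The GC box stood in 23 of the 30 member promoters (76.7%), against 34.9% of all 27457 promoters and 55.7% of the 9276 promoters of genes tested here. GCGGGGGCG stood in 7 (Cplx1, Nsf, Syn1, Syn2, Syp, Syt1 and Vamp2), 23.3% of the member promoters, against 2.78% of all promoters and 4.57% of those of tested genes. The cyclic AMP response element TGACGTCA stood in 3 (Napa, Syn1 and Vamp1), against 1.91% and 3.04%. TTCAGCACC, the left part of the site of the neuronal repressor REST, stood in Unc13a alone, against 0.379% and 0.464%. TATAAA stood in 0, against 14.3% and 9.21%. Both strands were searched, and GCGGGGGCG overlaps a GC box where a G follows it. Of the 7 holders of GCGGGGGCG, Syn1, Syn2, Syp and Syt1 were called lower in a stressed group without a slide block. So were members whose promoters lack it, such as Sv2a, Rab3c, Bsn, Pclo and Napa. That fit called 3.9%, 18.9% and 16.5% of all genes lower in the depression-susceptible, anxiety-susceptible and insusceptible groups. Cplx1, Nsf and Vamp2 were called lower only with the block, in the depression-susceptible group, where 22.9% of all genes were. Their differences there were above 0 after quantile normalization. A link between these letters and the calls was not tested. The median GC content of the member promoters was 64.5%, against 52.3% for all.

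Other genes of the same pathway, from 3 lists, are read against the 13.5% of all genes called higher and 22.5% called lower in the mean of the stressed groups. Of 34 tested genes for docking and release, 2 were called higher and 7 lower, no larger than those shares. Erc2, an active zone scaffold, fell by 0.84 in the stressed mean. Syt3 and Rab3gap2, which regulates Rab3, rose by 0.44 and 0.31.

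Of 25 other vesicle membrane proteins and transporters, 3 were called higher and 10 lower in the stressed mean, against the same 13.5% and 22.5% of all genes. Scamp1, a secretory carrier membrane protein, fell by 1.22 and Atp6v1b2, a subunit of the proton pump that powers vesicle filling, by 1.09, both also after quantile normalization. The monoamine transporter Slc18a1 rose by 1.19, with 1.34, 1.07 and 1.16 in the 3 groups, and the acetylcholine transporter Slc18a3 rose by 0.44, which was 0.18 after quantile normalization (adjusted p = 0.26). Of 23 endocytosis and recycling genes, 3 were called higher and 5 lower, which is near the shares of all genes. Pacsin1, a dynamin-binding protein, rose by 1.26 and Synj2, a lipid phosphatase, by 0.62, whereas Stx6 fell by 0.96 and the clathrin light chain Cltb by 0.86.

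Markers of the cells in the tissue were read beside these results. Of 20 neuron markers 18 had a probe, all well above background; 0 were called in the depression-susceptible group, 6 lower in the anxiety-susceptible, and 1 higher and 5 lower in the insusceptible group. Of all genes, 3.9%, 18.9% and 16.5% were called lower in the depression-susceptible, anxiety-susceptible and insusceptible groups, and 4.79%, 9.9% and 12.2% higher. A summed level here is the log2 of the summed signal of a list, in which the brightest markers weigh most. For the neuron markers it was 8.89 to 9.15 in control and 8.52 to 8.76 in the stressed samples, and 8.78 against 8.63 to 8.80 after quantile normalization. Of 11 microglia markers 0 were called higher and 3, 4 and 2 lower in the depression-susceptible, anxiety-susceptible and insusceptible groups, and their summed level was 5.65 to 5.66 in control and 5.19 to 5.33 in the stressed samples. GABA interneuron markers had 0 of 13 called higher and 2, 3 and 4 lower, with sums of 7.43 to 7.57 in control and 7.13 to 7.33 in the stressed samples. Of 12 tested principal cell markers 0 were called higher and 1, 2 and 2 lower, with sums of 6.40 to 6.51 in control and 5.998 to 6.28 in the stressed samples. After quantile normalization the sums of the interneuron and principal cell markers in control lay within or below those of the stressed samples. Choroid plexus markers were called lower for 14 of 14 tested in the depression-susceptible and insusceptible groups and 13 in the anxiety-susceptible group. Their summed level was 7.31 to 7.50 in control, and 5.31 to 5.47, 7.19 and 4.40 in the depression-susceptible, anxiety-susceptible and insusceptible groups. The median difference of the single markers was -3.7, -1.8 and -3.8 in the same order. Red blood cell markers summed to 0.53 to 0.56 in control, 4.71 to 4.75 in the depression-susceptible samples, 0.048 in the anxiety-susceptible and 1.45 in the insusceptible sample. Of 8 tested astrocyte markers 0 were called in any of the 3 groups. Of 11 oligodendrocyte markers 1 was called lower and of 7 tested endothelium markers 1 higher, both in the insusceptible group alone. Of 6 tested thalamus markers 0, 2 and 1 were called lower in the depression-susceptible, anxiety-susceptible and insusceptible groups. The part of these cells in the members' differences was not tested.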

How the data were processed

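Hippocampal RNA of 16 rat samples in 4 groups was measured on single-colour arrays after removal of ribosomal RNA and random-primed amplification into Cy3-labelled cRNA, per the labels' protocols. The deposited scanner files give a background-subtracted intensity for each spot, made per the file headers with Agilent Feature Extraction 11.0.1.1 (array design 026403) and no scaling from array to array. A second deposited table is on a log2 scale, with equal quantiles in every column; what made it is not stated in the labels, and it was used as an alternative. Symbols came from RefSeq accessions matched to a GRCr8 gene table used for names only: 14274 of 15323 messenger RNA probes matched.

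Flagged outlier spots were left out, and spots of a probe averaged. The log2 processed signal was lowered by each array's 75th percentile. The 17883 of 24684 probes well above background on at least 4 of 16 arrays were tested, with the brightest probe standing for a gene. An array had 62.2% to 74.6% of its probes well above background and 0 saturated spots; the number of arrays limits the precision. Slides were told from shared scan times. Arrays of 1 group on 1 slide had a variance 0.39 to 0.72 times that expected from repeated spots, on probes with 3 spots, against 4.18 and 3.52 between slides, and were averaged. Limma 3.58.1 in R 4.3.3 fitted 4 group means to the 6 samples (2 residual degrees of freedom, lone samples assumed to vary like the others), with two-sided moderated tests, 7 comparisons and Benjamini-Hochberg adjustment. The fit was tested on simulated data. It holds no slide term. Over probes, slide 2 minus slide 1 in control correlated at 0.72 with the same difference in the depression-susceptible samples. This shared shift stays in the SE of the main fit and is taken out by the slide block. Python 3.11.15, pandas 2.3.3, numpy 2.4.6 and matplotlib 3.10.9 did the rest.

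The 38 members and all lists were chosen with earlier results of these data known. Values in every sample are given for each member called in a stressed group against control; then paralogues, and from each pathway list the largest 2 rises and 2 falls called in the stressed mean; 1 gene of that rule is not reported here. The alternatives were other scalings, backgrounds, filters and probe rules, unaveraged arrays, blocks, and leaving out samples. The normexp alternative used median signals, with the local background of outlier-flagged spots set to the array's median, and 2 combined alternatives (quantile normalization with the slide block or with 16 arrays) were chosen after seeing the data.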

Additional observations from a re-analysis of the deposited data

Results flagged for a closer look

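On 9 of 140 sets of 4 arrays, made of 1 member and 1 group each, the highest or lowest array stood apart from the other 3 by a gap that chance alone gives in about 1 of 20 sets. In the depression-susceptible group these were Sv2a at 4.80 on array 1 (others 4.44 to 4.50), Cplx2 at -1.38 on array 1 (others -1.75 to -1.74), Rims2 at 0.18 on array 4 (others 0.0088 to 0.032), Syt2 at -6.44 on array 3 (others -6.78 to -6.74) and Unc13a at -5.99 on array 4 (others -5.88 to -5.88). In the control group they were Syt5 at 2.25 on array 4 (others 1.55 to 1.66), Syt11 at 0.59 on array 1 (others 0.49 to 0.49) and Slc17a6 at 0.69 on array 3 (others 0.75 to 0.76). In the anxiety-susceptible group Syt5 on array 4 was at 1.58 (others 1.46 to 1.47). Without depression-susceptible array 1, Sv2a still fell by 1.11 (limma, adjusted p = 0.019) in the anxiety-susceptible and by 0.89 (adjusted p = 0.026) in the insusceptible group.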

How the results depend on the processing

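Results against control are given in the order depression-susceptible, anxiety-susceptible, insusceptible and stressed mean, where the members called numbered 2, 16, 11 and 15 and the other vesicle genes called 4, 23, 20 and 30 of 81. Depression-susceptible against insusceptible and against anxiety-susceptible are called the first and second stressed comparison, and anxiety-susceptible against insusceptible the third. Only values that moved by over 1.5 times, or medians that moved by more than 0.013, are given. That limit is the larger standard deviation, between the slides of control or depression-susceptible, of the members' median level. It is not the spread of a median difference, which was -0.21 on slide 1 and -0.30 on slide 2 in the depression-susceptible group. Counts in this section stand without the share of all genes called by the same fit, so they are not results about the members. The slide block, for example, called 14.5% of all genes higher and 22.9% lower in the depression-susceptible group. The main fit called 4.79% and 3.9% there.

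With quantile normalization, 1 member was called in the depression-susceptible group, 6 in the insusceptible and 9 in the stressed mean, and 1 and 5 in the first and second stressed comparison; the medians against control were -0.0080, -0.12, -0.16 and -0.10, and 0.11 and 0.13 in those 2 comparisons. The authors' value table gave 1, 6 and 9 members for the same groups, 1 and 4 in the stressed comparisons, and medians of -0.015, -0.12, -0.15 and -0.098, then 0.082 and 0.095. Median scaling moved the median of all genes to -0.24, -0.50, -0.50 and -0.41; it called 12 members in the depression-susceptible group, 24 in the insusceptible and 25 in the stressed mean, 9 and 10 in the first 2 stressed comparisons, and 18, 47, 50 and 55 other vesicle genes, with member medians of -0.44, -0.75, -0.79 and -0.64, then 0.44 and 0.42, and 0.012 in the third. Normexp background called 1 member in the depression-susceptible and 18 in the insusceptible group, 12 and 16 in the first 2 stressed comparisons, and 37 and 35 other vesicle genes in the anxiety-susceptible and insusceptible groups; medians were -0.38 in the anxiety-susceptible group, -0.29 in the stressed mean and 0.25 in the second stressed comparison. Syngr1, Syt7 and Unc13a, all dim, were called higher in the day 2 groups under normexp. The cause of these moves was not tested.

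Without a filter, 0 members were called in the depression-susceptible and 6 in the anxiety-susceptible group and 2 in the first stressed comparison, and 2, 9 and 14 other vesicle genes in the depression-susceptible group, the anxiety-susceptible group and the stressed mean; medians were -0.23, -0.40, -0.29 and -0.29, and 0.19 in the first stressed comparison. With probes well above background on all 16 arrays, medians over the 31 members left were -0.32, -0.48, -0.41 and -0.36, then 0.19 and 0.24, with 3 members called in the second stressed comparison and 7 other vesicle genes in the depression-susceptible group. The mean of probes gave medians of -0.23 in the depression-susceptible group and 0.12 in the first stressed comparison. A trended, robust variance called 5 members in the second stressed comparison and 7 other vesicle genes in the depression-susceptible group.

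Taking 16 arrays as samples called 20, 26, 24 and 29 members and 52, 59, 63 and 59 other vesicle genes against control, and 22, 28 and 12 members in the 3 stressed comparisons. After quantile normalization this fit called 13 members in the depression-susceptible group, 24 in the insusceptible and 23 in the stressed mean, then 23, 24 and 12, and 37, 59, 61 and 56 other vesicle genes. Same-numbered arrays of different groups had deviations correlating at -0.55 to 0.13, and 5 of 16 arrays correlated best with their own number, so the numbers do not pair the arrays; the replicate block called 21, 26, 22 and 28 members, then 19, 25 and 11, and 44, 59, 57 and 57 other vesicle genes.

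The slide as a block called 17 members in the depression-susceptible group, 21 in the insusceptible and 27 in the stressed mean, then 14, 20 and 1, and 38, 51, 55 and 54 other vesicle genes. With quantile normalization as well, the fit with the block called 6 members in the depression-susceptible group, then 11, 13 and 1, and 18, 47 and 46 other vesicle genes in the 3 groups. Differences of Syn1 and Stx1a in the insusceptible group (0.013 and 0.050) and of Syn1 and Sv2b in the stressed mean (0.020 and 0.0100) then had the opposite sign to their calls. The slide as a random block of 16 arrays called 23 members in the depression-susceptible group, 21 in the insusceptible and 29 in the stressed mean, then 15, 23 and 7, and 60, 50, 49 and 56 other vesicle genes.

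Leaving out 1 array or 1 slide sample gave 0 to 3, 0 to 16, 0 to 12 and 2 to 16 members and 0 to 6, 1 to 24, 2 to 20 and 4 to 30 other vesicle genes called against control, and 0 in the stressed comparisons, with the lowest counts without a slide sample, where 1 residual degree of freedom is left. Medians ran from -0.31 to -0.21, -0.42 to -0.31, -0.40 to -0.33 and -0.35 to -0.28, then 0.072 to 0.18, 0.16 to 0.25 and -0.056 to -0.040. Keeping outlier spots moved no count or median by these limits.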
